A study of Mus musculus with 6 samples.

Results

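The forkhead family of transcription factors was described in palatal shelves of mouse embryos at E14.25. Its members were taken as every gene row whose symbol is Fox followed by a letter from a to s, a number and, where present, a closing letter, which gave 44 of the 23366 genes in the files. Expression of the family was compared between 3 wild type libraries, numbered 2, 3 and 4, and 3 libraries of the genotype Kmt2dfl/fl Wnt1-Cre, numbered 1, 2 and 3, in which the labels place the knockout in neural crest cells. Kmt2d encodes a histone H3 lysine methyltransferase that acts at enhancers, and Wnt1-Cre recombines floxed alleles in the neural crest, from which most palatal mesenchyme descends, and not in the palatal epithelium. The label WT gives no further alleles, so whether these embryos carried floxed alleles or Cre is not stated. Paired shelves were frozen in Trizol and made into stranded messenger RNA libraries, read as pairs of 25 bases. Counts come from whole tissue, in which fewer cells of a type and less RNA per cell cannot be told apart.

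Forkhead factors bind DNA through a winged helix domain of about the same shape in every member, whose recognition helix lies in the major groove and reads the sequence. In the palate, Foxf1 and Foxf2 are made in the mesenchyme in response to Sonic hedgehog from the overlying epithelium, and loss of Foxf2 causes cleft palate in mice. Foxc1 and Foxc2 act in cranial mesenchyme, Foxd1 in mesenchyme of several organs, and Foxe1, whose human counterpart is mutated in a syndrome of thyroid agenesis and cleft palate, in oropharyngeal epithelium. The Foxk, Foxn, Foxo and Foxp subfamilies are expressed in many tissues.

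The coding sequence around that helix shows how alike the members are, which matters for telling them apart by reads of 25 bases. The 60 bases below were read from GENCODE M21 transcripts of build GRCm38, sense strand, 5′ to 3′, and capitals mark bases that differ from Foxf2. The members shown are among those that the comparison of mesenchymal and epithelial genes turns on.
Foxf2 (chr13:31626497-31626556, plus strand): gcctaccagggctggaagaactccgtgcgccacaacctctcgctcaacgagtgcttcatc
Foxf1 (chr8:121084660-121084719, plus strand): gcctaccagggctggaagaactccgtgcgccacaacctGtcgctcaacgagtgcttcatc
Foxc1 (chr13:31807559-31807618, plus strand): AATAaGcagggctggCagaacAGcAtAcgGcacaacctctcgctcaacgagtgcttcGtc
Foxl1 (chr8:121128226-121128285, plus strand): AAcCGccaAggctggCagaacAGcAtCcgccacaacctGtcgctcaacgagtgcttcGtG
Foxq1 (chr13:31559379-31559438, plus strand): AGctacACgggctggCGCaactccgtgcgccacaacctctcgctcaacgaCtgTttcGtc
Foxd1 (chr13:98355127-98355186, plus strand): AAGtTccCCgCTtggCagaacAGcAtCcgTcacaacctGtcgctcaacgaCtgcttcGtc
Foxe1 (chr4:46344476-46344535, plus strand): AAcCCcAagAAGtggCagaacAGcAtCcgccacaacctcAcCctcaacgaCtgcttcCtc

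Over these 60 bases, which lie in coding exons, Foxf1 and Foxf2 differed at 1 base, whereas Foxc1 differed from Foxf2 at 12, Foxl1 at 13, Foxq1 at 10 and Foxd1 and Foxe1 at 17 each. Outside this domain the transcripts diverge. Of all runs of 25 bases in the Foxf1 transcript, 2.09% also occurred in a transcript of another gene, and the share was 2.65% for Foxf2, 1.37% for Foxc1, 2.52% for Foxc2, 2.06% for Foxd1, 3.88% for Foxl1 and 0.758% for Foxa1. Foxq1 exons share 3200 bases with A530084C06Rik on the opposite strand, Foxo1 exons 674 bases with the antisense gene Gm20402, and Foxe1 exons 102 bases with the antisense gene Gm12446 and Foxj2 exons 158 bases with the antisense gene Gm26826. The strand setting of the counting is not given in the sources used here, so reads of these genes and their antisense partners cannot be told apart.

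In wild type shelves, 26 of the 44 genes reached at least 1 CPM (counts scaled to a library of 1000000) in each of the 3 libraries and are called expressed here. A further 5 were low, with a mean of at least 0.1 CPM, among them Foxi3, Foxj1, Foxa2 and Foxs1, and 13 lay below 0.1 CPM. Of these 13, Foxd4, Foxe3, Foxh1, Foxi2 and Foxr2 had 0 counts in all 6 libraries, and 0 counts allow a level of up to 0.107 CPM in wild type replicate 2 and up to 0.227 CPM in knockout replicate 2 (3 counts, counting error only). The others below 0.1 CPM were Foxa3, Foxb1, Foxb2, Foxi1, Foxn1, Foxn4, Foxp3 and Foxr1, with 0 to 5 counts summed over the wild type. Foxp3, the factor of regulatory T cells, had 4 counts in the wild type and 1 in the knockout, and Foxn1, the factor of thymic and hair follicle epithelium, had 3 and 2. The family thus took a small part of each library, from 0.0759% of gene counts in knockout replicate 1 to 0.123% in wild type replicate 2.

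Levels of different genes were set side by side per kilobase of annotated exon. Foxf2 stood highest, at 31.4 ± 3.30 CPM per kb (SD, n = 3), followed by Foxk2, a broadly expressed factor, at 19.6 ± 0.40 CPM per kb and Foxf1 at 18.05 ± 4.43 CPM per kb (SD, n = 3 each). Foxf1 and Foxk2 did not differ beyond their spread, while every wild type library of Foxf2 lay above every one of Foxk2. Foxd1 at 5.10 ± 0.916, Foxc1 at 4.28 ± 0.933, Foxl1 at 3.57 ± 0.900 and Foxc2 at 3.47 ± 1.99 CPM per kb (SD, n = 3 each) formed a lower tier of mesenchymal members whose ranges overlapped. Among epithelial members Foxa1, a pioneer factor of endodermal and glandular epithelia, stood at 7.29 ± 1.29 CPM per kb, Foxe1 at 3.19 ± 0.786 CPM per kb while Foxq1 lay below them (SD, n = 3 each). These levels depend on the length assumed. The length of the transcript that has the longest coding sequence was also used in place of all exons. Foxp1 then moved from 8.45 to 54.8 CPM per kb, above Foxf2, and Foxp2 from 4.29 to 27.6. Foxp4 moved from 17.2 to 26.4, while Foxf1 and Foxf2 kept their values. That transcript has 2121 bases in Foxp1 and 2544 in Foxp2, against 13751 and 16346 bases of annotated exon. The counts are of whole genes, so a length that leaves out transcribed exons overstates the level.

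**Figure D1:**
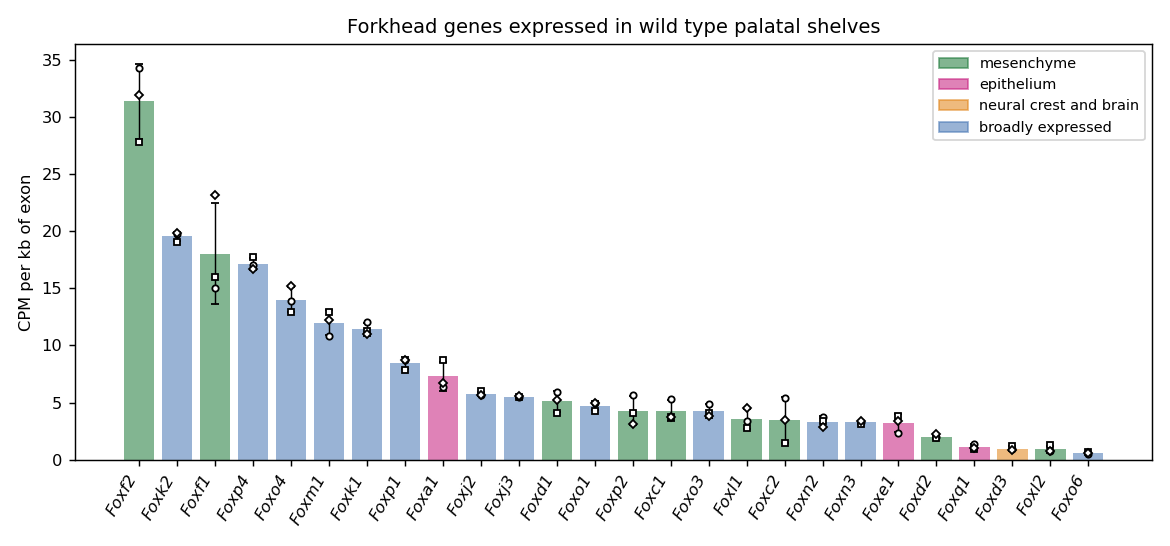
Wild type level of the 26 expressed forkhead genes in CPM per kb of annotated exon, bars giving the mean, error bars the SD of 3 libraries and symbols the libraries (circle, replicate 2; square, replicate 3; diamond, replicate 4). Foxf2 stands highest at 31.4 CPM per kb, and the wild type libraries of Foxc2 spread more widely than those of Foxk2.

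Of the 44 genes, 29 passed the filter on low counts and were tested. In these, 0 rose and 0 fell in the knockout at an adjusted p under 0.05 (edgeR quasi-likelihood test, adjusted over all 14233 genes tested), where 0.534% of all genes tested passed, 0.0984% higher and 0.436% lower in the knockout. At an unadjusted p under 0.05 there were 3 members (Foxa1, Foxj1 and Foxo3), all lower in the knockout, where 6.69% of all genes tested were lower at this level. In another tool, DESeq2, 1 member fell (Foxa1, adjusted p = 0.00776), as did 325 of all 14233 genes tested. In limma voom 0 passed, with 4 at an unadjusted p under 0.05, as were 1844 of all 14233 genes. Without knockout replicate 2, which stands apart from the other libraries, 0 members passed either, against 2.12% of all genes tested. The median log2 fold change of knockout over wild type was -0.06 over the 29 members and 0.01 over all genes tested. In 4 of the 29, the knockout libraries did not overlap the wild type libraries (Foxa1, Foxj1 and Foxo3 lower, Foxn3 higher), against 23.5% of all genes tested, 11.2% lower and 12.3% higher.

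The 0 calls do not show that the members stayed level, since 3 libraries a group leave wide intervals for many of them. The 95% interval of the log2 fold change reached from 0.231 to 2.08 to either side of the estimate, with a median of 0.635. It lay within 1.5-fold in either direction for 8 of the 29 members, and 16 lay between -1 and 1 on the log2 scale. The narrowest intervals belonged to broadly expressed members.

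**Figure D2:**
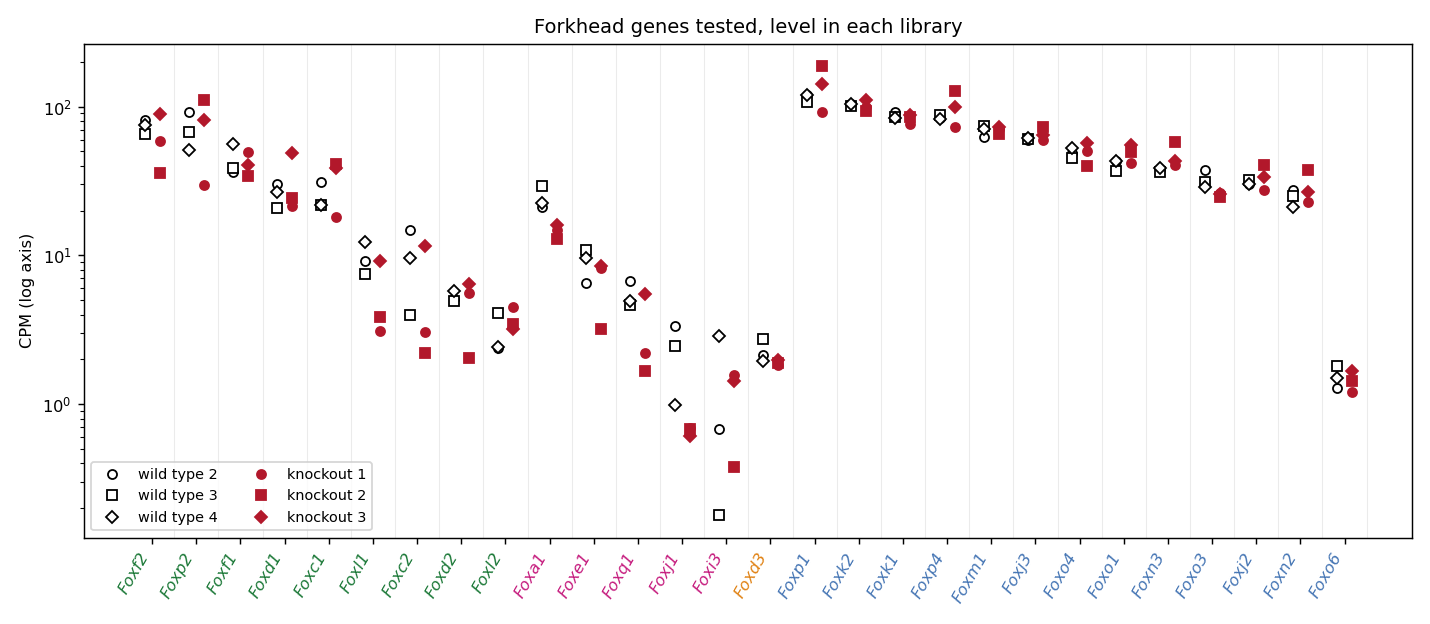
CPM (log axis) of tested forkhead genes in each library, wild type in open and knockout in filled symbols (circle, square and diamond for the lowest, middle and highest replicate number of the group), with gene names coloured by role. Foxa1 and Foxj1 have all knockout libraries below all wild type libraries, while the mesenchymal Foxf1, Foxf2, Foxc1, Foxc2 and Foxd1 overlap.

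Among the mesenchymal members, Foxf2 stood at 81.1, 65.7 and 75.6 CPM in the wild type libraries in numerical order, and at 58.9, 35.6 and 88.5 CPM in knockout replicates 1, 2 and 3. Knockout replicates 1 and 2 lay below all wild type libraries and knockout replicate 3 above them. The log2 fold change was -0.28 (95% interval -0.96 to 0.40; edgeR, adjusted p = 0.665), and -0.02 without knockout replicate 2 and -0.65 without knockout replicate 3. Foxf1, whose older symbol Foxf1a is not in the files, stood at 36.3, 38.6 and 55.9 CPM in the wild type and 49.6, 33.9 and 40.4 CPM in the knockout. Its groups overlapped, and the log2 fold change was -0.08 (95% interval -0.56 to 0.40; edgeR, adjusted p = 0.879), turning to 0.04 without knockout replicate 2 and to 0.14 without wild type replicate 4. Foxf2 was the more abundant of the pair in each library, with a ratio to Foxf1 in CPM of 2.23, 1.70 and 1.35 in wild type shelves, against 1.19, 1.05 and 2.19 in knockout shelves, ranges that overlap.

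Foxc1 stood at 31.3, 21.7 and 21.96 CPM in the wild type and 18.1, 41.3 and 38.5 CPM in knockout replicates 1, 2 and 3. The knockout libraries lay on both sides of the wild type, with a log2 fold change of 0.38 (95% interval -0.33 to 1.10; edgeR, adjusted p = 0.568), which was 0.17 without knockout replicate 2. Foxc2 varied in both groups, with 14.8, 3.99 and 9.56 CPM in the wild type and 3.04, 2.19 and 11.6 CPM in the knockout. It had the widest interval of the group, a log2 fold change of -0.73 (95% interval -2.31 to 0.84; edgeR, adjusted p = 0.619), which was -1.85 when knockout replicate 3 was left out and -0.25 when wild type replicate 2 was. The ratio of Foxc1 to Foxc2 in CPM was 2.11, 5.45 and 2.30 in wild type shelves, against 5.96, 18.8 and 3.32 in knockout shelves, which overlap.

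Foxd1, in the mouse a factor of renal stroma and of the ventral retina, stood at 30.1, 20.9 and 26.6 CPM in the wild type and 21.5, 24.3 and 48.7 CPM in the knockout. Knockout replicate 3 was higher than the other 5 libraries, which overlapped (log2 fold change 0.29, 95% interval -0.44 to 1.01; edgeR, adjusted p = 0.679), and without it the log2 fold change was -0.18. Foxl1, a mesenchymal Hedgehog target in the gut, stood at 9.15, 7.53 and 12.3 CPM in the wild type and 3.10, 3.86 and 9.17 CPM in the knockout (log2 fold change -0.83, 95% interval -1.79 to 0.13; edgeR, adjusted p = 0.389). Foxd2 and Foxl2 had log2 fold changes of -0.15 and 0.34 (edgeR, adjusted p = 0.871 and 0.613). Foxp2, known in humans for its part in speech, stood between 51.2 and 92.3 CPM in the wild type and between 29.5 and 111 CPM in the knockout (adjusted p = 0.948). Of the 10 tested genes listed as mesenchymal, a list that also holds Foxp1, 5 had positive and 5 negative log2 fold changes, with a median of -6.6e-04 (0.02 without knockout replicate 2). The marker list of palatal mesenchyme summed to 6349 to 7245 CPM in the wild type and 5689 to 6632 CPM in the knockout, and the receptor genes Pdgfra and Pdgfrb had log2 fold changes of 0.15 and -0.43 (edgeR, adjusted p = 0.674 and 0.336), that of Pdgfra being -0.05 without knockout replicate 2. None of its 21 members was at 0 counts in a group.

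In several forkhead genes knockout replicate 3 stood apart from the other knockout libraries relative to the wild type. In Foxc2, Foxl1, Foxf2, Foxq1, Foxd3 and Foxk2, knockout replicates 1 and 2 lay below every wild type library and knockout replicate 3 did not. These are 6 of the 29 tested members, against 8.28% of all genes tested, a pattern chosen after the values were seen. In Foxd3 and Foxk2 the knockout libraries lay close together, at 1.83 to 1.99 and 94.1 to 110.5 CPM, and in Foxd3 replicate 3 only just passed the lowest wild type library, at 1.94 CPM. Of these, Foxc2 and Foxl1 lie close together with Foxf1 on chromosome 8, and Foxq1 and Foxf2 lie close together with Foxc1 on chromosome 13. Foxf1 and Foxc1 themselves did not show the pattern. Without knockout replicate 3 the log2 fold changes were -1.85 for Foxc2, -1.48 for Foxl1, -1.48 for Foxq1, -0.65 for Foxf2, -0.28 for Foxd3 and -0.09 for Foxk2 (edgeR, adjusted p from 0.126 for Foxl1 to 0.618 for Foxd3), a direction that the choice of these genes fixes. Summed epithelial markers stood at 1042, 638 and 1106 CPM and summed mesenchymal markers at 6632, 5689 and 5995 CPM in knockout replicates 1, 2 and 3. Their part in the pattern was not tested.

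The tested epithelial members had negative log2 fold changes in 5 of 5 cases, as did 6899 of all 14233 genes tested. Their median was -0.74 (-0.49 without knockout replicate 2). Of the 5, 0 passed the test (edgeR), where 0.534% of all genes tested passed. At an unadjusted p under 0.05, 2 were lower in the knockout, where 6.69% of all genes tested were lower at this level. The estimate for Foxi3 was -0.09 and turned to 0.28 without knockout replicate 2 and to 1.37 without wild type replicate 4. Foxa1 stood at 21.2, 29.2 and 22.4 CPM in the wild type libraries, against 14.7, 12.9 and 15.9 CPM in the knockout libraries. All knockout libraries lay below all wild type libraries, with means of 24.3 ± 4.30 and 14.5 ± 1.495 CPM (SD, n = 3 each). The log2 fold change was -0.74 with a standard error of 0.16 (95% interval -1.12 to -0.36; edgeR, adjusted p = 0.142), and the adjusted p ranged from 0.00776 in DESeq2 to 0.538 without wild type replicate 3. Foxe1 stood at 6.51, 10.8 and 9.56 CPM in the wild type and 8.23, 3.18 and 8.51 CPM in the knockout, with overlapping groups and a log2 fold change of -0.42 (edgeR, adjusted p = 0.606) that was -0.10 without knockout replicate 2. Foxq1, a factor of hair shaft and gastric epithelium, stood at 6.73, 4.66 and 4.91 CPM in the wild type and 2.21, 1.66 and 5.52 CPM in the knockout (log2 fold change -0.77; edgeR, adjusted p = 0.433).

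General markers of epithelium were also lower in the knockout libraries. All 22 listed epithelial markers had negative log2 fold changes, with a median of -0.69 (-0.41 without knockout replicate 2), and their summed level was 1213 to 1460 CPM in the wild type and 638 to 1106 CPM in the knockout. None of the 22 was at 0 counts in a group, and of these 0 passed the test (edgeR) and 13 had an unadjusted p under 0.05, as did 2021 of all 14233 genes tested. Without knockout replicate 2, 4 of the 22 fell, against 1.57% of all genes tested. Epcam, an epithelial adhesion molecule, stood at 79.1 ± 8.54 and 53.3 ± 15.1 CPM and Cdh1, E-cadherin, at 115 ± 11.8 and 70.0 ± 20.2 CPM (SD, n = 3 each; edgeR, adjusted p = 0.323 and 0.248). Relative to the mean log2(CPM + 0.1) of the 22 markers, Foxa1 lay at -0.44 ± 0.20 in the wild type and -0.43 ± 0.35 in the knockout (SD, n = 3 each), a difference of 0.0053 on the log2 scale. The same difference was 0.21 for Foxe1 and -0.21 for Foxq1, each below the spread within the knockout, and it was -0.75 for Foxj1 and 1.04 for Foxi3, whose wild type libraries had SDs of 0.98 and 1.69. By library, Foxa1 relative to the markers was -0.45, -0.23 and -0.63 in wild type shelves, against -0.61, -0.03 and -0.66 in knockout replicates 1, 2 and 3, so its knockout mean rests on replicate 2. Without that library the log2 fold change of Foxa1 was -0.67 (edgeR, adjusted p = 0.0615), beside the marker median of -0.41.

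**Figure D3:**
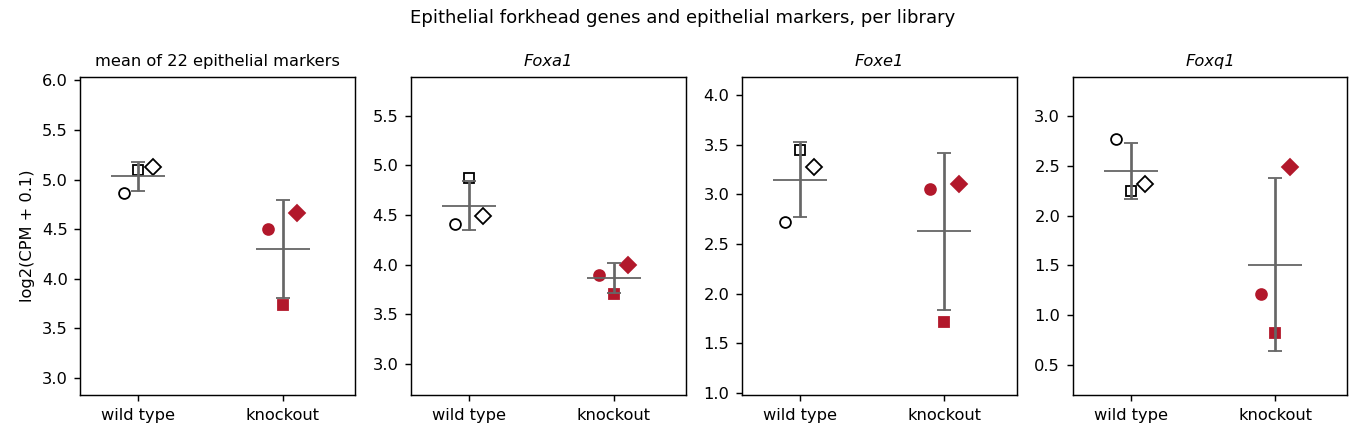
Log2(CPM + 0.1) per library of the mean of 22 epithelial markers and of Foxa1, Foxe1 and Foxq1, in wild type (open) and knockout (filled) libraries, with mean and SD of 3 libraries as grey lines and each panel spanning the same number of log2 units. The marker mean and Foxa1 have all knockout libraries below the wild type, and Foxe1 and Foxq1 overlap.

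Foxj1, the master regulator of motile cilia, was low, at 3.35, 2.46 and 0.990 CPM in the wild type and 0.696, 0.681 and 0.608 CPM in the knockout. The knockout libraries were close together and below the wild type, which spread more than 3-fold (log2 fold change -1.78, standard error 0.52; edgeR, adjusted p = 0.240). They rest on 31 counts in all, against 172 in the wild type. The 10 tested genes of the list of motile cilia had 8 positive log2 fold changes, a median of 0.35 and 0 past the test (edgeR), 2 of them at an unadjusted p under 0.05, as were 2021 of all 14233 genes tested. The smallest p values in this list were those of Ccdc39 and Spag16, axonemal genes with log2 fold changes of 1.24 and 1.62 (edgeR, adjusted p = 0.313 and 0.349). Ccdc39 stood at 5.25, 11.7 and 3.54 CPM in knockout replicates 1, 2 and 3, and without replicate 2 the log2 fold changes were 0.60 and 1.27. Of the 20 list members named in the files, 10 were too low to test. Foxa2, a factor of foregut endoderm and floor plate, was under the filter, with 12, 13 and 19 counts in the wild type and 0, 0 and 4 counts in the knockout. The depth-adjusted ratio of wild type to knockout was 7.04, with a 95% counting interval of 2.56 to 26.97 that covers counting error only. With no filter the adjusted p of Foxa2 was 0.293 (edgeR). Foxi3, a factor of ectodermal placodes and teeth, varied from 0.179 to 2.88 CPM within the wild type and from 0.378 to 1.58 CPM in the knockout.

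Among the remaining lineage-restricted members, Foxd3, the neural crest factor later kept in glial precursors, stood at 2.14, 2.73 and 1.94 CPM in the wild type and 1.83, 1.89 and 1.99 CPM in the knockout (log2 fold change -0.25; edgeR, adjusted p = 0.683). Its groups overlapped. Schwann cell markers summed to 162 to 171 CPM in the wild type and 101 to 129 CPM in the knockout, with 0 of 8 at 0 counts. Of the 8, 4 had positive and 4 negative log2 fold changes, with a median of -0.13. Sox10, the defining factor, had a log2 fold change of 0.31 (edgeR, adjusted p = 0.697). Only 1 marker of this list fell, the neurotrophin receptor gene Ngfr, where 0.436% of all genes tested fell. Ngfr had a log2 fold change of -1.21 (edgeR, adjusted p = 0.0194) and was named after its value was seen. It made up a large part of the summed level, at 89.8 ± 2.75 CPM in the wild type and 38.9 ± 5.61 CPM in the knockout (SD, n = 3 each). Neuronal markers summed to 382 to 479 CPM in the wild type and 319 to 682 CPM in the knockout, and Tubb3 and Elavl3 had log2 fold changes of -0.06 and 0.06 (edgeR, adjusted p = 0.953 and 0.970).

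The 13 broadly expressed members were the steadiest, with a coefficient of variation in the wild type from 1.40% for Foxj3 to 16.8% for Foxo6 and a median of 6.01%, against 23.2% in the mesenchymal and 24.6% in the epithelial list and 8.22% over all genes tested. Foxk1 and Foxk2, regulators of metabolism and autophagy, stood at 86.7 ± 4.41 and 83.3 ± 5.85 CPM and at 102.8 ± 2.10 and 101.4 ± 8.35 CPM in the wild type and knockout (SD, n = 3 each). Their log2 fold changes were -0.06 (95% interval -0.29 to 0.18) and -0.02 (95% interval -0.25 to 0.21). Foxm1, the driver of G2 and M phase genes, stood at 69.1 ± 6.07 and 69.9 ± 3.99 CPM (SD, n = 3 each), with a log2 fold change of 0.02 (95% interval -0.23 to 0.27; edgeR, adjusted p = 0.955). Of the 20 listed Foxm1 target genes, 0 passed the test (edgeR, 0 also at an unadjusted p under 0.05), with a median of -0.06 that was 0.05 without knockout replicate 2. In that library 17 of the 20 targets had their lowest level, where 36.3% of all genes tested did. Of the 20, 17 had negative and 3 positive log2 fold changes. Cdc25c and Cenpf, both among the 3, had the smallest p values, with log2 fold changes of 0.20 and 0.14 (edgeR, adjusted p = 0.51 and 0.526).

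The Foxo factors, which are kept out of the nucleus by AKT downstream of insulin and growth factors, had estimates of both signs, and 0 passed the test (edgeR, 1 at an unadjusted p under 0.05, Foxo3). Foxo3 stood at 37.2, 30.9 and 28.7 CPM in the wild type and 26.3, 24.7 and 25.9 CPM in the knockout, groups that did not overlap (log2 fold change -0.33, standard error 0.13; edgeR, adjusted p = 0.327). Foxo1 stood at 43.1, 37.1 and 42.9 CPM in the wild type and 41.8, 49.1 and 55.2 CPM in the knockout, which overlapped (log2 fold change 0.25, standard error 0.13; edgeR, adjusted p = 0.417). The ratio of Foxo1 to Foxo3 in CPM was 1.16, 1.20 and 1.495 in wild type shelves, against 1.59, 1.99 and 2.13 in knockout shelves, so each knockout library lay above each wild type library. This ratio was chosen after the values were seen and was not tested. The ratios of Foxf2 to Foxf1, Foxc1 to Foxc2, Foxk2 to Foxk1, Foxp1 to Foxp4 and Foxd1 to Foxd2 overlapped between the groups. Foxo4 and Foxo6 had log2 fold changes of 0.0052 and -0.08, and that of Foxo4 turned negative under several other settings (-0.02 with no filter). The broadly expressed Foxj2, Foxj3 and Foxn2 had log2 fold changes of 0.14, 0.11 and 0.24 (edgeR, adjusted p = 0.684, 0.623 and 0.579). Of 26 listed Foxo target and PI3K input genes, 0 passed the test (edgeR, 4 at an unadjusted p under 0.05, against 2021 of all 14233 genes tested), with a median of -0.08. Cited2, a transcriptional coregulator, stood at 32.1 ± 2.09 CPM in the wild type and 43.5 ± 3.45 CPM in the knockout (SD, n = 3 each; edgeR, adjusted p = 0.193, and 0.0262 without knockout replicate 2), and Txnip, an inhibitor of thioredoxin and glucose uptake, at 81.9 ± 2.46 and 63.7 ± 5.80 CPM (SD, n = 3 each; edgeR, adjusted p = 0.237).

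**Figure D4:**
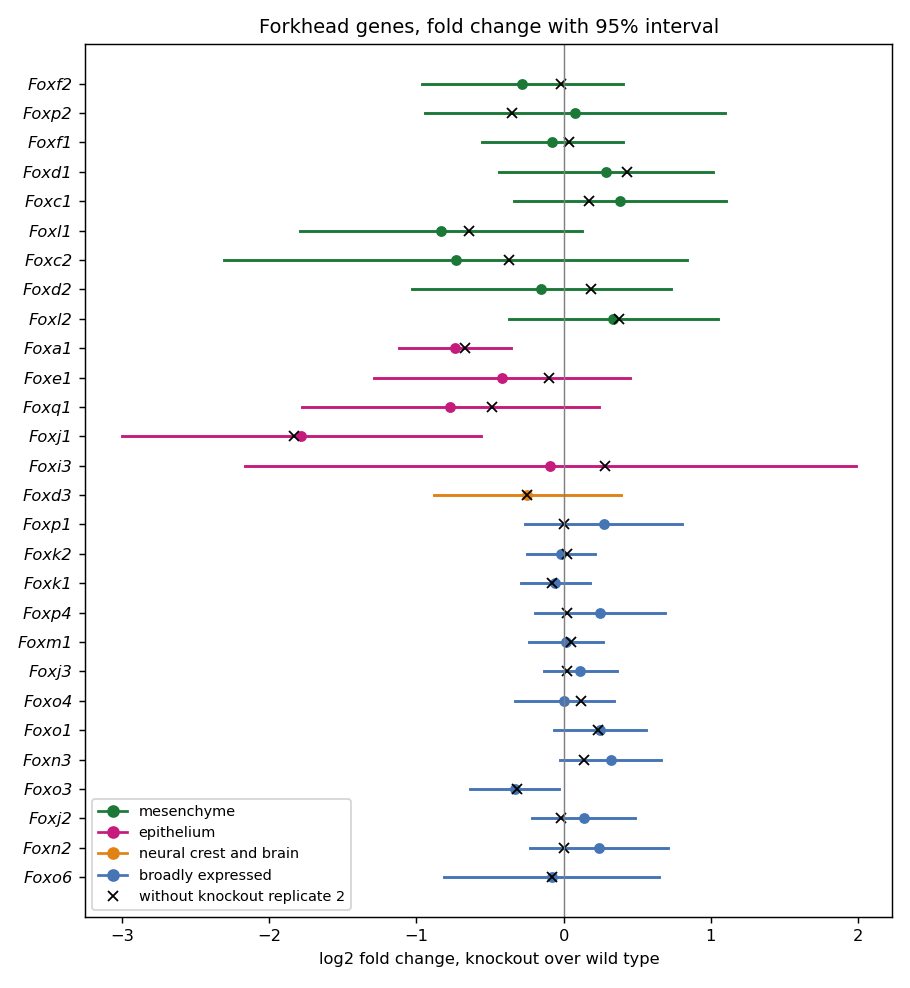
Log2 fold change of knockout over wild type for tested forkhead genes, points and lines giving the estimate and its 95% interval over 6 libraries and crosses the estimate without knockout replicate 2, coloured by role. Intervals of Foxa1, Foxj1 and Foxo3 lie below 0 before adjustment, and those of Foxk1, Foxk2 and Foxm1 are narrow and span 0.

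In most long genes of the family knockout replicate 2 lay above the mean of knockout replicates 1 and 3. Foxp1, a factor of many progenitor cells, stood at 120.1, 108 and 120.4 CPM in the wild type and 92.4, 186 and 142 CPM in the knockout, Foxp4, its relative, at 83.9, 87.3 and 82.3 CPM and 73.2, 128 and 99.8 CPM, and Foxn3, a checkpoint repressor, at 37.9, 36.3 and 38.7 CPM and 40.6, 57.4 and 42.9 CPM. Knockout replicate 2 was the highest of the 6 libraries in each of these 3 genes, as in 34.7% of all genes tested. Their log2 fold changes of 0.27, 0.25 and 0.32 became 0.0032, 0.02 and 0.14 without it. Without knockout replicate 1 they were 0.50, 0.43 and 0.41. In Foxp1 and Foxp4, knockout replicate 1 lay below every wild type library and knockout replicate 3 above. Over the 12 tested members with an annotated span of at least 20 kb, knockout replicate 2 exceeded the mean of knockout replicates 1 and 3 in 10, with a median log2 ratio of 0.31. Over the 17 shorter members it did so in 2 (Foxc1 and Foxj1), with a median of -0.53. Over all genes tested for which the ratio could be computed, it did so in 4499 of 7621 long genes (median 0.11) and 2034 of 5753 shorter ones (median -0.22). All long members except Foxp2 are in the broadly expressed list, so span and role largely go together within the family. The shorter members of that list, Foxm1 and Foxo4, had log2 ratios of -0.14 and -0.41. Spearman's rho between span and this ratio was 0.73 across the 29 genes, which share the same libraries, and 0.32 across the 13374 tested genes for which both could be computed. Between span and the fold change it was 0.51, and 0.11 without knockout replicate 2, against 0.18 and -0.0050 across all those genes. In that library, pairs assigned to no gene made up 47.5% of those listed, where the other 5 had 12.3% to 18.1%, and summed skeletal muscle markers reached 11395 CPM against 279 to 664 CPM. Their part in the pattern was not tested.

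**Figure D5:**
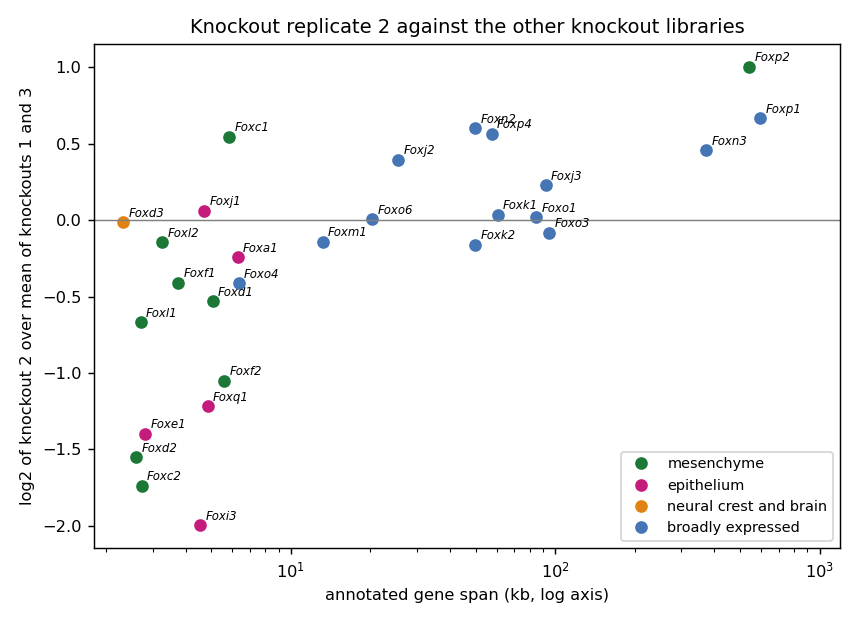
Log2 ratio of knockout replicate 2 to the mean of knockout replicates 1 and 3 in CPM, against the annotated gene span in kb (log axis), 1 point a gene for tested forkhead genes, coloured by role. Over all 29, genes of at least 20 kb have a median of 0.31 and shorter genes one of -0.53.

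Of the 20 genes listed for the Hedgehog and FGF circuit in which Foxf1 and Foxf2 act, 19 were tested. Of these, 0 rose and 1 fell (edgeR), where 0.0984% of all genes tested rose and 0.436% fell. The median log2 fold change was 0.05, and -0.09 without knockout replicate 2. The gene that fell was Hhip, a Hedgehog-binding antagonist and target of the pathway, which stood at 49.8, 47.1 and 40.8 CPM in the wild type and 21.01, 21.3 and 22.5 CPM in the knockout (log2 fold change -1.09, standard error 0.12, adjusted p = 0.0194, and 0.00156 without knockout replicate 2). Hhip did not pass in the fits that left out any of the other 5 libraries. Fgf18 and Shh were named after their values were seen, because in the mouse palate Foxf1 and Foxf2 restrict Fgf18 and thereby sustain Shh. Fgf18 stood at 6.94, 5.83 and 9.90 CPM in the wild type and 4.998, 8.93 and 7.95 CPM in the knockout, overlapping groups with a log2 fold change of -0.05 (edgeR, adjusted p = 0.945). Shh, the epithelial ligand, stood at 12.8, 17.5 and 13.9 CPM in the wild type and 7.91, 5.75 and 6.46 CPM in the knockout, with no overlap (log2 fold change -1.13, standard error 0.19; edgeR, adjusted p = 0.068, and 0.0218 without knockout replicate 2). The epithelial markers were lower in the same libraries, as given above, and their part in the level of Shh was not tested.

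Gene counts per library ranged from 12721979 in knockout replicate 2 to 24916079 in wild type replicate 2. The targeted gene, listed under its older symbol Mll2, stood at 193 ± 20.6 CPM in the wild type and 329 ± 184 CPM in the knockout (SD, n = 3 each; edgeR, adjusted p = 0.368). Its level was 254, 539 and 193 CPM in knockout replicates 1, 2 and 3. The log2 fold change was 0.77, and 0.21 without knockout replicate 2. A whole-gene count includes exons outside the floxed part and cells outside the neural crest, so it does not check the labels. Endothelial markers summed to 378 to 419 CPM in the wild type and 303 to 361 CPM in the knockout, and leukocyte markers to 91.9 to 99.5 and 55.2 to 72.6 CPM. Pericyte and smooth muscle markers, as 1 list, summed to 337 to 406 and 275 to 367 CPM. Cartilage and bone markers summed to 2169 to 4367 and 1095 to 1346 CPM and red cell markers to 503 to 956 and 252 to 1330 CPM. These lists and that of skeletal muscle held 15, 13, 10, 11, 5 and 10 tested genes, in this order. Of these, 1 gene fell, Col1a1, where 0.436% of all genes tested fell. Its log2 fold change was -1.66 (edgeR, adjusted p = 0.0376, and 0.0813 without knockout replicate 2), and it was named after its value was seen. Col1a1 made up much of its list's sum, at 2236 ± 614 CPM in the wild type and 709 ± 108 CPM in the knockout (SD, n = 3 each). In that list 4 genes had positive and 7 negative log2 fold changes, with a median of -0.90. Among the markers named by rule, Pecam1 and Cdh5 had log2 fold changes of -0.29 and -0.31, Ptprc and Csf1r of -0.15 and -0.40, Rgs5 and Kcnj8 of 0.06 and -0.15, Sox9 and Col2a1 of 0.22 and -1.45, Myog and Myod1 of -0.19 and 0.0097, and Hbb-b1 of -1.07. The 10 tested muscle markers had 8 positive log2 fold changes, with a median of 0.16 (-0.51 without knockout replicate 2), and knockout replicate 2 was highest in 9. For the markers from Pecam1 to Hbb-b1 just listed, the adjusted p (edgeR) ran from 0.292 for Csf1r to 0.991 for Myod1. Hba-a1 was at 0 counts in all libraries. The part of these cell types in the forkhead values was not tested.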

How the data were processed

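Messenger RNA of palatal shelves was measured in 3 wild type and 3 knockout libraries. Each library has a deposited list of gene symbols with the authors' whole-number counts, to which no scaling had been applied. Per the submitters' processing notes, TopHat2, SAMtools, HTSeq and mm9 were used, without versions. The annotation and strand setting: not given in the sources used here. Lines of the counting program that name no gene were left out. Those without a gene held 12.3% to 47.5% of all listed pairs, and those aligned to several places 18.1% to 30.3%.

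Titles gave the groups. Libraries of a group were not copies of each other (chi-square per degree of freedom 11.0 to 153). Nothing states separate litters, so p-values measure the spread between these samples. Size factors were TMM values, and counts were filtered with filterByExpr (14233 genes kept) and compared with edgeR 4.0.16 (R 4.3.3; quasi-likelihood test, robust, no covariate), with Benjamini-Hochberg adjustment over all genes tested at 0.05; the fit was tested on simulated data. CPM are counts scaled to 1000000 of the library size times its factor, and standard errors and 95% intervals of the log2 fold change (knockout over wild type) come from that fit. Alternatives used DESeq2 1.42.0, limma 3.58.1, other size factors and filters, single libraries left out and the replicate number as a block. Exon lengths, spans and sequences came from GENCODE M21 on GRCm38, in which all 44 symbols matched; this is another build than that of the counts, so coordinates only locate the printed sequences. Genes named outside the family were, per list, those past the threshold (at most 4), or else the 2 with the smallest p, and the first 2 genes of each marker list. Members, lists and tests were chosen with earlier results of these data known. Values of 1 tested member, 1 marker gene and some sequences are not reported here, and the plots leave out that member.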

Additional observations from a re-analysis of the deposited data

How the results depend on the processing

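The count of 0 forkhead genes past the threshold held under every alternative run except DESeq2, which called 1 (Foxa1). The family's median log2 fold change of -0.06 lay between -0.11 and 0.0032 with single libraries left out and between -0.09 and 0.02 under the other settings, so its sign is not fixed. Over all genes 76 passed, and 486 in DESeq2, 316 in limma voom with sample quality weights and 298 with the replicate number as a block. The block shares 2 numbers between the groups, and same-numbered libraries deviated together with a correlation of 0.21 for number 2 and -0.14 for number 3, so the numbers were not taken as pairs; the smallest adjusted p of a member in this block fit was 0.094. With single libraries left out the count over all genes ran from 0 (edgeR, when wild type replicate 2 or 3 was left out, where 1102 and 1117 genes had an unadjusted p under 0.05) to 306 (without knockout replicate 2), with 3, 20 and 11 without wild type replicate 4, knockout replicate 1 and knockout replicate 3. The gene past the threshold in the pathway lists, 1 in all, became 0 to 3. Signs of single members changed most often with sample quality weights (8 of 29) and without knockout replicate 2 (6 of 29), in no case for a gene past the threshold. The cause was not tested. Expressed members numbered 28 and 24 at 0.5 and 2 CPM. Depth limits the low members most, since 1 count is worth 0.0356 to 0.0757 CPM.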
